A study of Mus musculus with 12 samples.

Results

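The regions described here are intergenic copies of transposable elements (TEs) that are over 5 kb and up to 6 kb long. They are all copies of that length in the P0 TE table that overlap no gene of GENCODE release M21 (GRCm38) on either strand. There are 4786 of them among 298593 listed copies (1.60%), and they cover 25.8 Mb. RNA came from gonocytes, the immature male germ cells present around birth, sorted from mice with the Mvh-Venus transgene, a reporter of the germ cell gene Mvh. At postnatal day 0 (P0), 3 libraries of Morc1 (+/-) mice, called het, were compared with 3 libraries of Morc1 (-/-) mice, called KO. Both genotypes carry the transgene. The labels describe neither the changed part of Morc1 nor whether animals were pooled, so p-values measure the spread between libraries. The P3 samples were not analysed here.

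TEs are sequences that were copied through the genome, mostly through an RNA intermediate. In male germ cells most of their DNA methylation is erased in the fetus and set again before and around birth, with help from small RNAs bound to PIWI proteins. MORC1 is an ATPase of the GHKL type that is known to be needed for TE repression in the male germ line. Copies of several kb can be long enough to hold the reading frames of a LINE element or the internal part of an endogenous retrovirus, whereas short copies are mostly fragments, solo LTRs and SINEs. The table gives a position and a strand for each copy and no family name, so the copies are described here by length, strand and place.

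Some of these copies hold the annotated start of a RefSeq transcript that GENCODE M21 does not list, and for these the sequence is known. A RefSeq (GRCm38.p6) promoter window, from 250 bases before to 50 bases after a transcript start, overlapped 11 of the 4786 copies. Of these copies, 10 were tested and 5 were called higher in KO, against 15.6% of all tested copies and 58.5% of those in the class. The windows of 3 risen copies follow, cropped to the copy and written on the strand of the copy, with CG dinucleotides, the sites of DNA methylation, in capitals. The fourth is from a copy that did not pass the test, and is 1 of 3 RefSeq windows in that copy.
Gm46483 window, chr14:100737332-100737454, plus strand: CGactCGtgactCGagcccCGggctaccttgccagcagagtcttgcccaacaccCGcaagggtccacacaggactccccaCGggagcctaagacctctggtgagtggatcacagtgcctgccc
Gm40514 window, chr9:41910887-41911186, minus strand: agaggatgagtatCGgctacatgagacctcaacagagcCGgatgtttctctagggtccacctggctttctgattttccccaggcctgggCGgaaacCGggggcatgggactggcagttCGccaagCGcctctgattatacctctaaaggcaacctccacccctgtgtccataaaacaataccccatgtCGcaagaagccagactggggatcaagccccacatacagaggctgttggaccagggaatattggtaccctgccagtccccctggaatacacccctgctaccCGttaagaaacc
Gm52787 window, chr5:122195519-122195818, plus strand: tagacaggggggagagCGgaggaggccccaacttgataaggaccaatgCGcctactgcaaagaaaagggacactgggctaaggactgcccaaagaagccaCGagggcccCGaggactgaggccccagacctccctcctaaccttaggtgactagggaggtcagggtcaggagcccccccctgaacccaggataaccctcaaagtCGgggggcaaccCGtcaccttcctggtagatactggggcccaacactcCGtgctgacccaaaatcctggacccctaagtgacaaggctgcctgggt
Gm31630 window, chr13:92895416-92895715, minus strand: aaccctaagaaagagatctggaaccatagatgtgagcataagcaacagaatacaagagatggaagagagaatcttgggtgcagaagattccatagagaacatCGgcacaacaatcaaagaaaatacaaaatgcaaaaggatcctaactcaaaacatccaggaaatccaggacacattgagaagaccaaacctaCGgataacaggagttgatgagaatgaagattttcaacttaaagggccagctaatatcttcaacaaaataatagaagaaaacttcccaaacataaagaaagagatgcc

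The Gm46483 window covers the first 123 bases of a 5570 bp copy, whose transcript starts just outside the copy and runs away from it, and it held 6 CG and 64.2% G or C. That copy had 1.05, 7.85 and 9.59 normalised counts in het, in the order of the replicate numbers, and 90.6, 80.5 and 43.6 in KO (log2 fold change 3.59 ± 0.70 SE, limma adjusted p 0.00492). Every KO library lay above every het library. The Gm40514 window starts at base 506 of a 5631 bp copy with 60.1, 46.0 and 84.3 counts in het and 281, 176 and 226 in KO (limma log2 fold change 1.84, adjusted p 0.00678). It held 8 CG. The Gm52787 window, with 7 CG, starts at base 1932 of a 5695 bp copy with 20.04, 6.73 and 6.71 counts in het and 34.3, 44.9 and 53.0 in KO (limma log2 fold change 2.04, adjusted p 0.0321). The Gm31630 window lies in a 5974 bp copy with 10.5, 4.49 and 55.6 counts in het and 3.82, 14.7 and 2.57 in KO (limma adjusted p 0.523). It held 2 CG and 37.7% G or C, while the other windows in that copy, which overlap each other at its 5′ end, held 6 CG in 187 bases and 5 CG in 102 bases. Over all 32851 RefSeq windows of 300 bases, the median was 7 CG and 52.7% G or C, and 94.6% held a CG. Of the 9 windows that lie whole within a copy of the class, none held TATAAA on either strand, the core of the TATA box, against 13.6% of all windows. CCAAT, searched on both strands, was in 5 of the 9 and in 37.4% of all windows. The 9 are not all separate sequences. The 5 include the windows of Gm45978 and Gm40378, which differ at 3 of 299 bases. The windows of Gm42270 and LOC115486431, also among the 9, lie in the same copy.

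Copies that hold nearly the same window could differ in level. The windows of Gm45978 and Gm40378 matched at all but 3 of 299 bases, and the bases that differ are in capitals.
Gm45978 window, chr7:29619228-29619526, plus strand: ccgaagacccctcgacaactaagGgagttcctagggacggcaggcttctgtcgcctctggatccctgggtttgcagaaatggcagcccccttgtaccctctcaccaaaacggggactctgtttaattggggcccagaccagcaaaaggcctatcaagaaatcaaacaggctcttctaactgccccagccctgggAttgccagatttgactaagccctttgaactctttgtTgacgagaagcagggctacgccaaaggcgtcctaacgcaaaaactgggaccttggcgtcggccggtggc
Gm40378 window, chr6:73289788-73290086, minus strand: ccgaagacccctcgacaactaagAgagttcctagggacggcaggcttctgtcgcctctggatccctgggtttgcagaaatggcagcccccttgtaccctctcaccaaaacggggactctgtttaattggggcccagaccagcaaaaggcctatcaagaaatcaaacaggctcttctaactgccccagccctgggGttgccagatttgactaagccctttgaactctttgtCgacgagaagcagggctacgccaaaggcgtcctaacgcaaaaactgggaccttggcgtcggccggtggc

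The copy of 5932 bp that holds the Gm45978 window had 15.8, 8.97 and 20.1 normalised counts in het and 60.1, 48.0 and 45.3 in KO (log2 fold change 1.76 ± 0.50 SE, limma adjusted p 0.0311). The copy of 5692 bp that holds the Gm40378 window had 362, 292 and 559 counts in het and 559, 875 and 420 in KO. Its groups overlapped, and its change did not pass the test (log2 fold change 0.60 ± 0.40 SE, limma adjusted p 0.421). It had the highest het level per kb of all 4786 copies. The whole windows held 12 CG (Gm45978) and 13 CG (Gm40378). The difference between both changes was not tested. Reads that match several copies equally well cannot be assigned to a place, and how they were counted is not given in the sources used here.

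Reads per library numbered 28363683 to 32816861 on genes and 1974504 to 3703419 on TE copies. Het replicate 3 stood apart from the other het libraries. Its summed level of 25 somatic cell markers (Sertoli, Leydig, myoid, endothelial, blood and mesenchymal genes) was 68508 normalised counts, against 25783 and 32002 in the other het libraries and 19504 to 25615 in KO. Its summed level of 20 germ cell markers was the lowest of the 6, at 153868, within a range that reached 230727 in het and ran from 167545 to 230386 in KO. No marker of either list was at 0 in any library. In limma none of the 20 and none of the 25 passed an adjusted p under 0.05. At an unadjusted p under 0.05, Lin28a was higher among the germ cell markers, and Amh, Clu and Sox9, genes of Sertoli cells, were lower among the somatic ones. At that level 1149 of all 26005 tested genes were higher and 634 lower. In bulk samples, fewer cells of a type and less RNA per cell cannot be told apart. The part of these markers in the results below was not tested, and values without het replicate 3 are given beside the main ones. Morc1 itself had 7248, 7485 and 4126 normalised counts in het and 1360, 1343 and 1794 in KO (limma adjusted p 0.0109). The groups did not overlap, but the call did not hold in limma without trend (adjusted p 0.089) or in 3 of the 6 limma fits with a library left out (adjusted p 0.0511, 0.101 and 0.0663).

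Reads on the 4786 copies were several times more frequent in KO. Per 100 gene reads, the copies took 0.0986, 0.0882 and 0.229 reads in het, by replicate number, but 0.608, 0.926 and 0.585 in KO. The lowest KO library was above the highest het library, which was het replicate 3. The mean rose 5.10-fold, from 0.139 ± 0.0783 to 0.706 ± 0.191 (SD, n = 3 each). A two-sided exact permutation test of this rise had p = 0.1, and 3 against 3 libraries allow no smaller value. Of all TE reads, the copies took 1.51%, 1.47% and 2.63% in het and 6.80%, 7.09% and 6.22% in KO, a 3.59-fold rise of the mean (exact permutation p = 0.1). On the normalised scale of the TE table the summed level rose 4.27-fold, and 5.57-fold without het replicate 3.

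**Figure D1:**
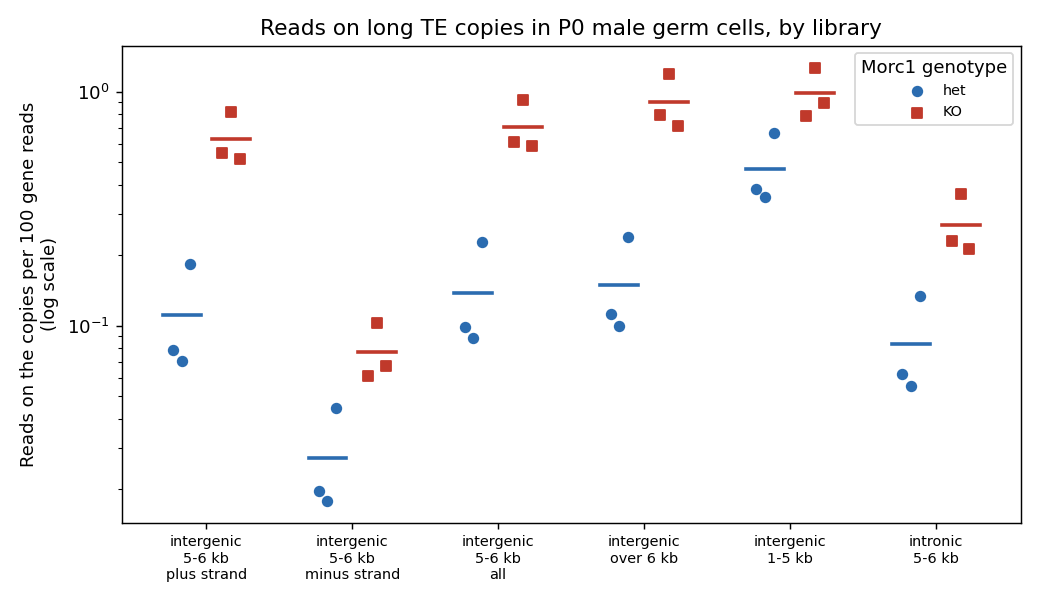
Reads per 100 gene reads (log scale) on intergenic copies of 5 to 6 kb, split by strand and together, and on 3 classes for comparison, with 1 point per library (circles het, squares KO) and a line at each mean. In the class of 5 to 6 kb every KO library (0.585 to 0.926) lies above every het library (0.0882 to 0.229).

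The rise was spread over many copies. At least 10 reads fell on 1044, 964 and 2209 of the 4786 copies in het and on 3110, 3520 and 3259 in KO. The 10 copies with the most reads held 5.45%, 5.03% and 5.15% of the class's reads in het and 2.50%, 3.03% and 2.11% in KO. By contrast, 50% of the reads were held by similar numbers of copies, 639, 681 and 669 in het and 620, 617 and 723 in KO. At the median copy, het libraries had 4.22, 4.49 and 7.67 normalised counts and KO libraries 18.1, 20.9 and 18.8. All 3 KO libraries lay above all 3 het libraries in 2584 copies (54.0%), against 9.24% of all listed copies. The opposite order was found in 85 copies (1.78%), against 6.75% of all listed copies. At most 3 reads in each het library and more than 3 in each KO library were found on 324 copies, and the reverse on 13. Every listed copy has at least 10 reads over the 6 libraries, so these copies are listed only through reads of their higher group. The share of such copies among all listed ones was not computed.

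A test was made for 2845 of the copies, those with a mean of at least 10 normalised counts over the 6 libraries. Of these, 1663 (58.5%) were called higher in KO and 6 (0.211%) lower, at an adjusted p under 0.05 in limma over all 49781 tested copies. Of all tested copies, 15.6% were called higher and 0.735% lower. The copies of 5 to 6 kb thus made up 21.5% of all copies called higher. Their median log2 fold change on the log2(value + 1) scale was 2.48, against 0.03 over all tested copies. It was also 2.48 with copies at or under 3 reads in each het library set to their bound. The filter shaped these counts, because 1542 of the 2845 had a het mean under 10 and passed it through their KO values. Of these 1542, 1026 were called higher. Among the 1303 tested copies with a het mean of at least 10, 637 were called higher. The share called among all tested copies with such a het mean was not computed, and the 15.6% above is not limited in this way. The 1941 copies below the filter were not tested. Without KO replicate 1 the count of higher copies was 972, and without KO replicate 2 it was 1085. Without het replicate 3 it was 1900. Of all 49781 tested copies, 4463, 5135 and 8897 were called higher in these 3 fits. None of the 1663 copies had a log2 fold change below 0 in any alternative fit in which it was tested, the fits with a library left out included. This is no check of the calls, because in 1662 of them every KO library lay above every het library.

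**Figure D2:**
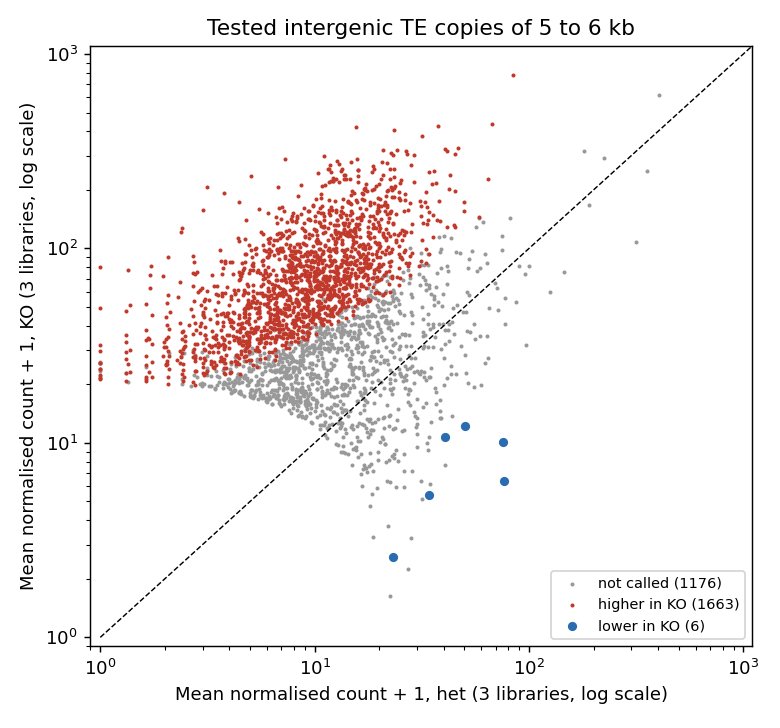
Mean normalised count plus 1 (log scales) in 3 KO libraries against 3 het libraries for each of the 2845 tested copies, coloured by the limma call, with a dashed line at equal means. The 1663 copies called higher fill the space above the line, the 6 called lower lie well below it, and the empty corner at the lower left is set by the filter on the mean.

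The 8 largest rises were on copies with het means of 0 to 11.7 normalised counts. Ranking by log2 fold change favours copies with few het reads, so a low start is partly set by the choice. Those with a het mean under 10 passed the filter through their KO values. A copy of 5414 bp (chr8:63849816-63855229, plus strand) was without reads in het and had 112, 65.0 and 62.4 normalised counts in KO. Set against a floor of 3 reads per library, the KO mean was at least 25.4-fold higher (limma adjusted p 0.000551). Its nearest gene is Gm24580, a snoRNA gene 22967 bp away. A copy of 5258 bp (chr11:91638627-91643884, minus strand) had 0, 4.49 and 3.83 counts in het and 260, 180 and 133 in KO (log2 fold change 5.95 ± 0.69 SE, limma adjusted p 0.000474). A copy of 5968 bp (chr7:42527007-42532974, minus strand) had 0, 4.49 and 30.7 counts in het and 293, 327 and 225 in KO (log2 fold change 5.64 ± 0.95 SE). For it, het replicate 3 was again the highest het library.

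The other copies among the 8 largest rises had fitted log2 fold changes of 5.63 to 6.11. They are copies of 5034 bp (chr8:102032374-102037407), 5986 bp (chr2:159637947-159643932), 5452 bp (chr5:70052037-70057488), 5377 bp (chr3:33200984-33206360) and 5359 bp (chr17:89874741-89880099), all on the plus strand. The one on chromosome 17 had 2 reads in all het libraries together, and the KO to het ratio of its summed reads, scaled by size factors, was 105 (exact binomial 95% interval 28.7 to 869.6, counting error only). None of the 8 had a copy of 200 to 700 bp on the same strand within 50 bp of either end.

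Among copies called higher, the 4 highest KO levels per kb were on copies with het means of 2.66 to 14.6 normalised counts per kb. A copy of 5723 bp (chr12:64426712-64432434, minus strand) had 88.6, 52.7 and 109 normalised counts in het and 862, 964 and 520 in KO. Its KO mean of 782 ± 232 counts (SD, n = 3) came to 137 per kb, and its rise passed the test (log2 fold change 3.23 ± 0.40 SE, limma adjusted p 0.000556). It lies 38896 bp from Fscb, a gene of the sperm tail. A copy of 5423 bp (chrX:47736423-47741845, plus strand) had 63.3, 32.5 and 104 counts in het and 466, 548 and 291 in KO (limma log2 fold change 2.79). A copy of 5570 bp (chr1:84700618-84706187, plus strand), which lies 4397 bp from Dner, had 21.1, 19.1 and 26.8 counts in het and 443, 477 and 291 in KO (log2 fold change 4.10 ± 0.38 SE). A copy of 5480 bp (chr5:68388114-68393593, plus strand) was uneven among the KO libraries, with 242, 817 and 194 counts against 27.4, 13.5 and 2.88 in het. On all 4 every KO library lay above every het library. This follows from the choice among copies called higher, of which 1662 of 1663 had that order.

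All 6 copies called lower had over 10 normalised counts in every het library, and 5 of them had a KO mean under 10. The 4 largest falls are described first. A copy of 5058 bp (chr6:59073679-59078736, plus strand) had 72.8, 97.6 and 55.6 normalised counts in het and 5.72, 7.74 and 2.57 in KO (log2 fold change -3.65 ± 0.57 SE, limma adjusted p 0.00145). A copy of 5681 bp (chr1:69257233-69262913, plus strand) had 87.5, 80.8 and 54.6 counts in het and 5.72, 20.9 and 0.855 in KO (log2 fold change -3.51 ± 0.79 SE, limma adjusted p 0.0102). These 2 calls held in all 14 alternative fits.

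The calls of 2 others held in fewer fits. A copy of 5374 bp (chr7:87161017-87166390, minus strand) had 30.6, 15.7 and 53.7 counts in het and 0, 13.2 and 0 in KO, and its call (limma adjusted p 0.0436) was lost in 11 of 14 alternative fits, at an adjusted p of 0.149 with edgeR. A copy of 5051 bp (chr1:26990182-26995232, plus strand) had 10.5, 22.4 and 33.5 counts in het and 0, 3.87 and 0.855 in KO (limma adjusted p 0.0452), and its call was lost in 9 of 14 alternatives. The 2 smallest falls had log2 fold changes of -2.05 and -1.93 (limma adjusted p 0.0169 and 0.0413), and were not followed across the alternatives. All 6 lie over 10 kb from any gene.

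The highest het levels per kb belonged to copies that did not pass the test. Beside the copy with the Gm40378 window, a copy of 5044 bp (chr3:58600503-58605546, plus strand) had 230, 223 and 609 normalised counts in het and 179, 346 and 220 in KO (limma log2 fold change -0.40, adjusted p 0.681). Without het replicate 3 its log2 fold change was 0.077. A copy of 5137 bp (chr9:59370533-59375669, minus strand) had 403, 368 and 176 counts in het and 134, 149 and 36.8 in KO. Its groups did not overlap, and its limma adjusted p was 0.0545 (log2 fold change -1.70, SE 0.55), 0.017 with DESeq2 and 0.0213 without het replicate 3. These 3 copies lie 7370 to 12589 bp from the genes Suclg1, Selenot and Arih1.

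**Figure D3:**
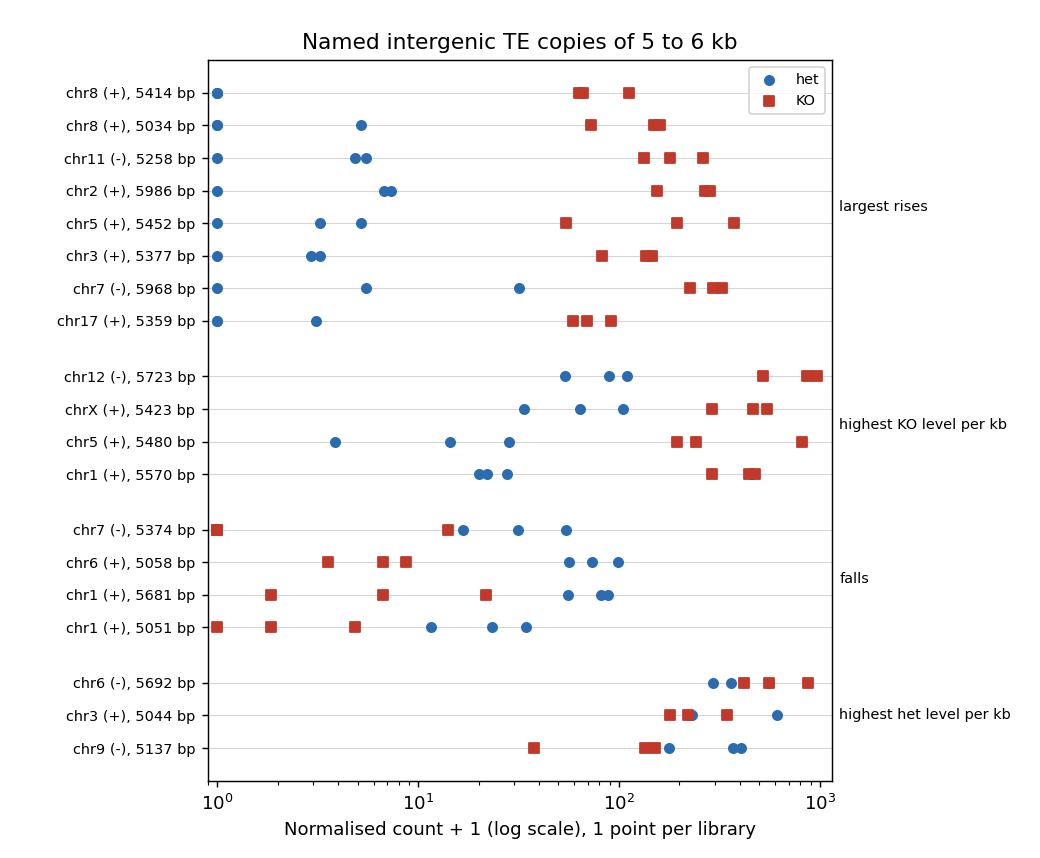
Normalised count plus 1 (log scale) in each library (circles het, squares KO) of the named copies, listed by chromosome, strand and length. KO points lie to the right of all het points for the largest rises and the highest KO levels (upper 2 groups). For the largest falls they lie to the left. This separation follows from the choice of copies. The largest rises and falls were named only without overlap between groups. The highest KO levels came from copies called higher, of which 1662 of 1663 had every KO library above every het library. The copies with the highest het levels show overlapping or close groups, such as 230, 223 and 609 in het against 179, 346 and 220 in KO.

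Strand divided the class. Of the 4786 copies, 3754 are listed on the plus strand (78.4%) and 1032 on the minus strand, whereas all listed copies are 49.8% plus. Among tested copies, 1551 of 2481 plus-strand copies (62.5%) and 112 of 364 minus-strand copies (30.8%) were called higher, against 15.6% of all tested copies. The log2 ratio of reads on plus-strand to reads on minus-strand copies was 2.01, 1.98 and 2.05 in het and 3.17, 2.996 and 2.94 in KO. It rose by 1.02 (exact permutation p = 0.1), and by 1.04 without het replicate 3. The groups did not overlap. This ratio and the next were chosen after the data were seen.

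On the minus strand, a peak of similar shape lay in the length class above. Among intergenic copies over 6 kb and up to 7 kb, 3498 were on the minus and 458 on the plus strand. Counts of copies by length matched best between strands when the minus-strand lengths were shifted by 994 bp (correlation across lengths 0.97, and 0.01 with no shift, with counts smoothed over 21 bp). The shares called higher were close, 62.6% of 2372 tested minus-strand copies of 6 to 7 kb and 62.5% of the plus-strand copies of 5 to 6 kb. The log2 ratio of reads between both groups stayed near 0, at 0.06, 0.03 and 0.06 in het and 0.01, 0.02 and -0.03 in KO. It was 0.05 lower in KO (exact permutation p = 0.1). Intronic copies of 5 to 6 kb were also mostly plus, 1286 against 372.

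At the 3′ end of plus-strand copies of the class, 69 listed copies of 0.9 to 1.05 kb on the same strand began within 10 bp. The class has 3754 such plus-strand copies. At its 1032 minus-strand copies there was 1 such neighbour, at the 3498 minus-strand copies of 6 to 7 kb there were 2, and at the 458 plus-strand copies of 6 to 7 kb there were 7. Of the 69, 1 was tested and none was called higher, and 5 (7.25%) had all KO libraries above all het libraries, against 9.24% of all listed copies. How the ends of the copies were set is not given in the sources used here. Whether the shift comes from the annotation or from the elements was not tested.

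**Figure D4:**
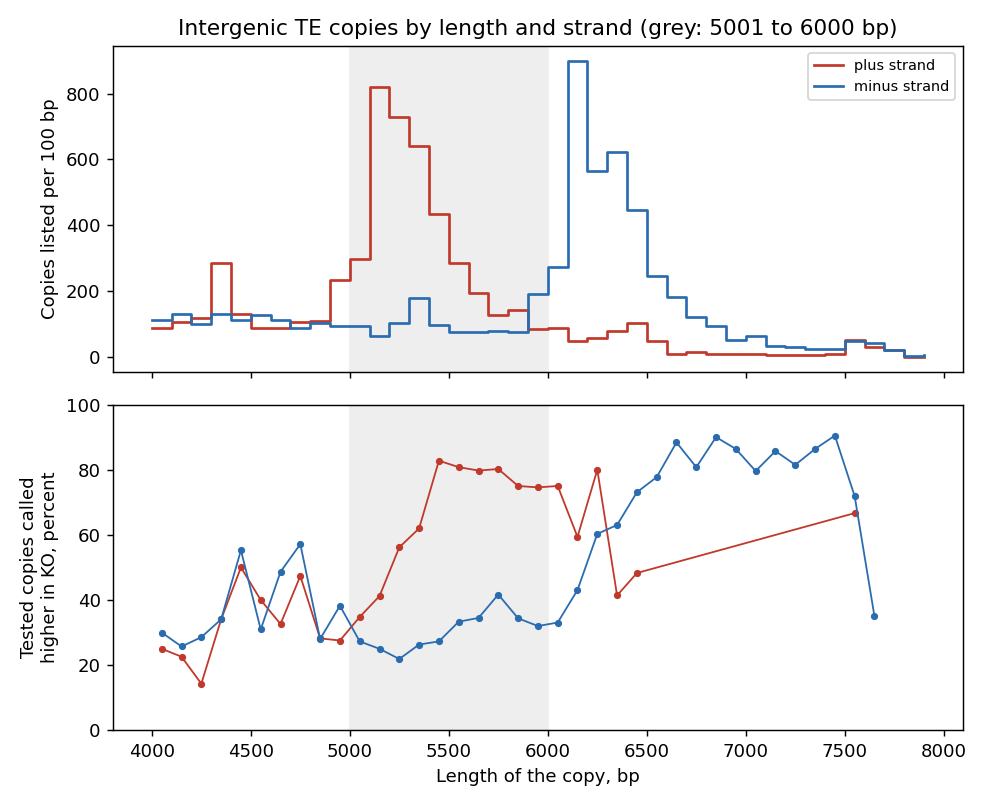
Listed intergenic copies per 100 bp of length (upper panel) and the percentage of tested copies called higher in KO, for bins with at least 20 tested copies (lower panel), by strand. The plus-strand peak lies between 5 and 6 kb (grey) and the minus-strand peak 994 bp further, and the rise of the called share with length is displaced in the same way.

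Within the class, the called share rose with length on the plus strand. It was 45.8% of 934 tested copies up to 5.25 kb, 68.1% of 902 from there to 5.5 kb, 77.8% of 410 from there to 5.75 kb and 80.9% of 235 up to 6 kb. On the minus strand it was 23.6%, 27.4%, 34.9% and 34.4% of 72 to 122 tested copies per bin. All are above the 15.6% of all tested copies, and no test was made between bins. Copies within 10 kb of a gene were called higher in 50.7% of 754 tests, those 10 to 100 kb away in 62.0% of 1648 and those over 100 kb away in 58.7% of 443. On the X chromosome the share was 64.1% of 298, and on the autosomes together it was 57.8% of 2544.

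Most copies stood alone. Of 4537 loci, formed by copies of the class within 10 kb of each other, 4302 held 1 copy. Copies at loci with several were called higher in 59.0% of tests, and single ones in 58.4%. The 2 largest loci each held 5 copies, all on the plus strand. At chr17:38870536-38909411 their summed level was 24.3, 20.2 and 88.2 normalised counts in het and 203, 238 and 146 in KO, and 2 of 4 tested copies were called higher. At chr4:73881042-73937358 it was 4.22, 2.24 and 64.2 in het and 22.9, 55.0 and 30.8 in KO, so the groups overlapped through het replicate 3. A same-strand copy of 200 to 700 bp lay within 50 bp of both ends of 8 copies, of 1 end of 245 and of neither end of 4533. The shares called higher were 37.5%, 47.0% and 59.2% of those tested.

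Beside other classes, the 5 to 6 kb copies rose more than shorter and intronic ones and a little less than longer ones, each without overlap of the groups. The log2 ratio of their reads to those on 23498 intergenic copies of 1 to 5 kb was -1.96, -2.01 and -1.54 in het and -0.38, -0.45 and -0.61 in KO. It rose by 1.36 (exact permutation p = 0.1). Against 1658 intronic copies of the same length the ratio was 0.67, 0.67 and 0.77 in het and 1.40, 1.34 and 1.46 in KO, a rise of 0.69 (exact permutation p = 0.1). Against 4414 intergenic copies over 6 kb it was -0.19, -0.17 and -0.06 in het and -0.39, -0.36 and -0.29 in KO, a fall of 0.21 (exact permutation p = 0.1). Without het replicate 3 these 3 differences were 1.505, 0.73 and -0.17. With only the copies at least 10 kb from any gene the fall was 0.09 (exact permutation p = 0.3). The limit of 6 kb falls between the plus-strand and the minus-strand peak of length. In each of the 8 such comparisons made p was 0.1, and so was the Benjamini-Hochberg adjusted value.

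Short intergenic copies near the class were also called higher, at a larger share on the upstream side. Of 2399 copies of up to 1 kb within 5 kb upstream of a copy of the class, 239 were tested and 68 (28.5%) were called higher. Of 1179 within 5 kb downstream, 109 were tested and 19 (17.4%) were called higher, and of 10043 tested elsewhere 10.4% were. The log2 ratio of downstream to upstream reads was -0.62, -0.59 and -0.84 in het and -1.39, -1.32 and -1.24 in KO, a fall of 0.63 (exact permutation p = 0.1, chosen after the data were seen). Without het replicate 3 it fell by 0.71. The groups did not overlap. Whether a short neighbour is a broken part of the same element was not tested.

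Few genes near the copies changed. A copy of the class lies within 10 kb of 924 genes of the gene table, of which 531 were tested, 9 (1.69%) were called higher and none lower by limma. Of all 26005 tested genes, 0.431% were called higher and 0.0423% lower. The median log2 fold change was 0.13 near the copies and -0.02 over all tested genes. At an unadjusted p under 0.05, 69 of the 531 were higher and 10 lower, against 1149 and 634 of all 26005 tested genes. With edgeR 11 were higher and none lower, where 121 of all 26005 tested genes were higher and 8 lower. With DESeq2 35 were higher and 2 lower, where 400 of all tested genes were higher and 65 lower. Without KO replicate 1 or without KO replicate 3 no gene near the copies was called higher, and only 18 and 15 of all tested genes were. Without het replicate 1 or KO replicate 2 there were 4 near the copies, against 66 and 58 of all tested genes. Without het replicate 3 there were 10, against 107 of all tested genes.

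Among the largest gene rises near the class, the nearest copy passed the test beside C87114 and Lamp3. C87114, a processed pseudogene, had no read in het and 90.0, 57.9 and 87.2 normalised counts in KO, at least 27.1-fold higher (limma adjusted p 0.0106). Its copy, 8082 bp away, had 5.27, 0 and 0 counts in het and 23.8, 169 and 27.4 in KO (limma adjusted p 0.00869). Lamp3, which codes for a lysosomal membrane protein, had 14.3, 13.5 and 16.6 counts in het and 164, 92.0 and 330 in KO (log2 fold change 3.45 ± 0.51 SE, limma adjusted p 0.0183). Its copy, 5028 bp away, rose as well (limma log2 fold change 3.58, adjusted p 0.0203). Sult2a4, a sulfotransferase gene of a multigene family, had 47.7, 42.5 and 46.8 counts in het and 358, 235 and 429 in KO (limma log2 fold change 2.83, adjusted p 0.00881). Its copy, 711 bp away, had 0, 2.24 and 14.4 counts in het and 23.8, 51.9 and 21.4 in KO, and its adjusted p was 0.0553.

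For the other genes among these largest rises the copy had too few reads for a test. AA792892 had 0, 1.93 and 3.90 counts in het and 39.6, 271 and 166 in KO, and its copy 4553 bp away had at most 13.4 counts in any library. Klrb1, a receptor gene of natural killer cells, had 8.58, 11.6 and 0 counts in het and 234.5, 147 and 281 in KO, and its copy 6589 bp away had at most 3.83. Igkv4-63, an immunoglobulin light chain segment, had 20.03, 12.6 and 33.2 counts in het and 146, 115 and 216 in KO, and its copy 4069 bp away had at most 11.98. All 3 genes, picked from those called higher, separated the genotypes. AA792892, Igkv4-63 and Sult2a4 have close relatives in the genome, so their counts are uncertain. The other 3 genes called higher were A630010A05Rik, Gm7298 and A530064D06Rik, named because all 9 are. The copy nearest A530064D06Rik passed the test (limma log2 fold change 1.82, adjusted p 0.0448), and those nearest A630010A05Rik and Gm7298 were not tested. Of all tested copies of the class within 10 kb of a gene, 50.7% were called higher.

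Other genes with known parts in TE silencing were read from a list of 40 that leaves out Morc1, which passed (above). It holds genes of piRNA production and use, DNA methylation, H3K9 methylation and the H3.3 chaperone ATRX-DAXX, and Morc2a, Morc3 and Morc4. All 40 were tested and none passed an adjusted p under 0.05 in limma, where 0.431% of all tested genes were higher and 0.0423% lower. Their median log2 fold change was 0.02. At an unadjusted p under 0.05, Mov10l1, a helicase of piRNA production, Cbx5, an HP1 protein, and Tdrkh, a Tudor protein of piRNA trimming, were higher. Mov10l1 had 12593, 12337 and 8582 counts in het and 23526, 15170 and 27099 in KO (limma adjusted p 0.252). Spocd1 and Gtsf1, both of nuclear piRNA silencing, were lower at that level, with limma adjusted p-values of 0.347 and 0.467. Of all 26005 tested genes, 1149 were higher and 634 lower at an unadjusted p under 0.05.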

How the data were processed

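Reads per gene and per TE copy of the 6 P0 libraries were used. The deposited values are a signal: in both tables the authors divided read counts by 1 size factor per library, computed from genes for the gene table and from TE copies for the TE table. They are called normalised counts. Per the submitters' processing notes, mm10 (GRCm38), bcl2fastq 2.20, cutadapt 1.18, HISAT2 2.1.0, featureCounts 1.5.2 and DESeq2 1.26.0 were used, with no role stated. Whole reads were recovered as multiples of the step per library (100% of values within 0.01 of a whole number), although in the gene table the step of KO replicate 1 is so close to 1 that this is no check there. Every listed copy has at least 10 reads over the 6 libraries. The stage of the TE columns was taken from the table's name.

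The main test was limma 3.58.1 (R 4.3.3; trend, two-sided, Benjamini-Hochberg over all tested features, threshold 0.05) on log2(value + 1), for each copy or gene whose mean reached 10. A count test had been planned only for raw counts. The fit was tested on simulated data. Class values were compared by exact two-sided permutation tests with scipy 1.17.1. Overlaps and distances came from bedtools 2.31.1. Alternatives were other pseudocounts and filters, limma without trend or with the replicate number as a block, edgeR 4.0.16 (TMM) and DESeq2 1.42.0 on recovered reads, gene size factors, other lengths and distances, and each library left out. No pair of libraries of a group agreed within counting noise over the copies: the mean chi-square per copy was 2.93 for the closest pair, with 1 expected.

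Named copies were the 8 largest rises and up to 4 largest falls without overlap between groups. The 4 highest KO means per kb among copies called higher and the 3 highest het means per kb were named too. Named genes were the 6 called genes with the largest changes within 10 kb of a copy and the 2 loci with most copies. Copies with a RefSeq window were chosen for their known sequence. The class and all lists were chosen with earlier results of these data known. Sequence features of whole copies were planned and not computed, since no genome sequence was used here.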

Additional observations from a re-analysis of the deposited data

How the results depend on the processing

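The count of copies higher in KO, 1663, ranged from 972 to 1900 when 1 library was left out (lowest without KO replicate 1, then 1085 without KO replicate 2). It was 538 of 583 tested copies with a mean of at least 50, 986 for lengths of 5.25 to 5.75 kb, and 112 on the minus strand alone. Over all tested copies the count higher, 7745, ranged from 4463 to 8897 with 1 library left out. The count of lower copies, 6, ranged from 4 to 10 with 1 library left out (10 without KO replicate 2). It was 3 with a pseudocount of 0.1, 12 with a pseudocount of 10, 13 with no filter, 2 with a mean of at least 50, 17 with DESeq2, 3 with gene size factors and 2 on the minus strand. Over all tested copies the count lower, 366, ranged from 98 to 383 with 1 library left out, and was 815 with DESeq2. Genes within 10 kb called higher, 9, ranged from 0 to 10 with 1 library left out. They were 5 and 14 with pseudocounts of 0.1 and 10, 14 with no filter and 35 with DESeq2. Over all tested genes the count higher, 112, ranged from 15 to 107 with 1 library left out. It was 70 and 177 with those pseudocounts, 152 with no filter and 400 with DESeq2. Within 50 kb, 25 genes were higher and 4 lower. DESeq2 called 2 genes within 10 kb lower. The causes of these moves were not tested, other than that fewer copies or libraries enter some of them.

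Morc1 had log2 fold changes of -2.31 to -1.88 with 1 library left out. The call did not hold in 3 of these 6 fits (omitting het replicate 1, then KO replicates 1 and 3) or in limma without trend (-2.03, adjusted p 0.089). The copy at chr3:58600503-58605546 turned from -0.40 to 0.077 without het replicate 3, within a range of -0.66 to 0.077 over all such fits. Gene size factors moved the median of all tested copies from 0.03 to 0.34 and that of the class from 2.48 to 2.79, and the class stayed 2.45 above all copies in both. The single values per library kept their direction in all alternatives. For the named copies, 240 of 266 alternative fits kept the outcome of the main fit, and for the named genes 46 of 78. Among these copies are the 3 with the highest het means per kb, for which that outcome was no call. The other named copies were picked from those called in these data.

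The labels say nothing of same-numbered libraries beyond the shared number. In het and KO replicate 3, 33.6% and 35.8% of listed TE copies had no read, against 21.9% to 26.2% in the other libraries. For genes these shares were 11.1% and 11.7%, against 6.10% to 8.07%. Whether same-numbered libraries were handled together is not given and was not tested. Over all tested TE copies the deviations of same-numbered libraries correlated at 0.15, -0.24 and -0.12 for replicates 1 to 3. Those of het and KO libraries with different numbers correlated at -0.22 to 0.31. Over the tested copies of the class the same-numbered values were 0.06, -0.04 and 0.01. With the replicate block, limma called 1479 copies higher and 4 lower, and 6 genes within 10 kb higher. Over all tested features it called 6640 copies higher and 243 lower, and 64 genes higher. With the replicate block, edgeR called 906 copies higher and 3 lower and 3 genes higher, and the log2 fold change of Morc1 was -2.04 (adjusted p 0.0717). Over all tested features edgeR then called 4186 copies higher and 115 lower, and 38 genes higher. The mean of differences within the replicate block for reads per 100 gene reads was 0.568, with an exact sign-flip p = 0.25, the smallest that 3 pairs allow. Depth limits the low copies: 809 of the 4786 copies had at most 3 reads in each het library and 174 in each KO library.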

Other observations

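The called share varied between chromosomes. Among autosomes it was lowest on chromosome 19, at 48.1% of 27 tested copies, and highest on chromosome 16, at 67.6% of 108. The Y chromosome had 10 listed copies, of which 3 were tested and 1 was called higher. Against 15.6% of all tested copies called higher, every autosome and the X chromosome were above that share, and no test was made between chromosomes.

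Another copy with a RefSeq start, of 5119 bp (chr4:39385533-39390651, plus strand), holds the windows of Gm42270 and LOC115486431. It had 39.0, 51.6 and 40.3 normalised counts in het and 81.1, 189 and 121 in KO (limma log2 fold change 1.49, adjusted p 0.0315). The Gm42270 window held 12 CG in 300 bases and matched the window of Gm34038, in a copy of 5923 bp on chromosome 17, at 80.5% of 241 bases. The copy on chromosome 17 had 12.7, 10.1 and 58.5 counts in het and 55.3, 53.4 and 63.3 in KO (limma adjusted p 0.149), so its groups overlapped through het replicate 3.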
